A study of Mus musculus with 12 samples.

Results

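The mitosis genes described here are 40 genes whose products carry a cell through mitosis and cytokinesis, and they were followed in mouse macrophages and osteoclasts with and without LPS (lipopolysaccharide, from the outer membrane of bacteria). The list is one of gene names with no threshold on a measured value, and its members were matched by mouse gene symbol. All 40 were found among the 54532 genes of the deposited table. All 40 also had at least 1 FPKM (fragments per kilobase of gene, scaled by library) in at least 3 of the 12 libraries, the condition for being tested, which 11335 genes met. Of the 40, 8 reached 1 FPKM in no osteoclast library and met that condition through macrophage libraries alone: Cdc25c, Cenpf, Kif23, Ndc80, Nek2, Nuf2, Spc24 and Ttk. Each group had 3 libraries. The untreated macrophages were wild-type (WT) bone marrow cells expanded with CMG, a source of M-CSF, and kept in CMG without RANKL to day 5. The LPS-treated macrophages received 100 ng/mL of LPS on day 5 for 3 h. The untreated osteoclasts were grown from the same kind of expanded cells with RANKL, given as 100 ng/mL in the sample source and as a range in the protocol. The LPS-treated osteoclasts had the same RANKL culture and the same LPS dose and time as the macrophages. CMG was thus present in all 4 groups. The labels give neither the age of the mice nor whether replicates came from separate mice or cultures, so p-values measure only the spread between these libraries, which may be technical.

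In a dividing cell, cyclin-dependent kinase 1 (Cdk1) with its cyclins starts mitosis, Polo-like and Aurora kinases build the spindle, and a checkpoint holds the cell until every kinetochore is attached. The anaphase-promoting complex then destroys cyclins and securin, and the central spindle guides the cleavage of the cell. Transcripts of most of these genes rise together late in the cell cycle, through MuvB complexes with Mybl2 and Foxm1 that act at cell cycle homology region (CHR) elements, and through NF-Y at CCAAT boxes. In resting cells the DREAM complex, which holds Rbl1 or Rbl2 with E2f4, keeps many of them low. M-CSF drives macrophages of the bone marrow to proliferate, whereas osteoclasts form when precursors stop dividing and fuse into cells with many nuclei, and RANKL cultures can keep mononuclear cells that have not fused.

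Promoter sequences from RefSeq (build GRCm38.p6) show what many of these genes have in common besides their names. Windows of 300 bases, from 250 before to 50 after the start of transcription, matched 33 of the 40 genes; Ccna2, Aurkb, Kif20a, Tpx2, Cdc25c, Spc24 and Incenp had no window. The CHR core was searched as TTTGAA and as TTTAAA, the NF-Y box as CCAAT, each on both strands, and TTTAAA is its own reverse complement. The 7 sequences that follow were chosen for a range of roles and responses; each gives the 200 bases before the RefSeq start on the strand of the gene, 5′ to 3′, with matches to the searched letters on either strand in capitals.
Cdk1, chr10:69352913-69353112, minus strand: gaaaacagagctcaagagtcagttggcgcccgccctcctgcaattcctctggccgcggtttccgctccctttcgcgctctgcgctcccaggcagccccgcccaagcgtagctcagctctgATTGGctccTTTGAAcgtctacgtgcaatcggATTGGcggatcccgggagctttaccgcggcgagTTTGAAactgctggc
Ccnb1, chr13:100786487-100786686, minus strand: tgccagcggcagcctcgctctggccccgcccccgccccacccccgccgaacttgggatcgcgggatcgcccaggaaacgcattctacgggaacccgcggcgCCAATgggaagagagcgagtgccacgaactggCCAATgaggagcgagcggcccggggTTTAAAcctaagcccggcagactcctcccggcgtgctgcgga
Cdc20, chr4:118437344-118437543, minus strand: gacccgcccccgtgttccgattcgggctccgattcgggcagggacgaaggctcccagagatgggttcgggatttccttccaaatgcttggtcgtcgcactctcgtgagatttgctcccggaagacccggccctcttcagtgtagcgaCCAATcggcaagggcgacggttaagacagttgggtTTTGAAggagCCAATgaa
Ube2c, chr2:164769729-164769928, plus strand: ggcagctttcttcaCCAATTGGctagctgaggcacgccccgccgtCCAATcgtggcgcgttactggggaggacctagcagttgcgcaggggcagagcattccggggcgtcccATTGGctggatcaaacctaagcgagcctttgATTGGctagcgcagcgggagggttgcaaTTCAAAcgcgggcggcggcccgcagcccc
Top2a, chr11:99024190-99024389, minus strand: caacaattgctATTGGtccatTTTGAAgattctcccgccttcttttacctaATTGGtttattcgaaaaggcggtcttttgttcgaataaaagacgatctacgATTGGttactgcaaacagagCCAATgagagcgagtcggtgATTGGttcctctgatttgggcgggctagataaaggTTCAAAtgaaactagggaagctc
Mki67, chr7:135716380-135716579, minus strand: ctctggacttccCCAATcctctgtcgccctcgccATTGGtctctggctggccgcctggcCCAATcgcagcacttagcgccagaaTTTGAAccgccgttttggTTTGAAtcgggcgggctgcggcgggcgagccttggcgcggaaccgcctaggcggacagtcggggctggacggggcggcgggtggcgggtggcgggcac
Ccnf, chr17:24251410-24251609, minus strand: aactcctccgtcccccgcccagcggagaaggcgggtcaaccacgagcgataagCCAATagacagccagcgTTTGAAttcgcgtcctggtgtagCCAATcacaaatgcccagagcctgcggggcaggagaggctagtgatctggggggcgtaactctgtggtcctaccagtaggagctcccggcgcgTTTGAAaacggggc

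TTTGAA was in 25 of the 33 windows (75.8%), against 17.9% of all 32851 RefSeq windows of the same length. Each of the 33 genes was counted by its first listed window alone, whereas the 32851 windows were counted without that limit. TTTAAA was in 9 of the 33 (27.3%), against 13.2% of all windows. CCAAT was in 27 of the 33 (81.8%), against 37.4% of all windows. A CHR core of either form together with CCAAT was in 24 of the 33 (72.7%), against 10.7% of all windows. These are matches of letters in a window and were not tested. The windows of Nuf2 and Nusap1 held none of the searched letters. Among the 25 windows of genes that LPS lowered in macrophages, as given further on, 21 held TTTGAA and 21 held CCAAT; among the 8 windows of genes that passed no threshold there, 4 held TTTGAA and 6 held CCAAT. The letters were thus also present upstream of Mki67, Top2a and Ube2c, which were not called there as the values were deposited; some alternatives called Top2a and Ube2c lower and Mki67 higher. Ccnf, with the strongest response, had the same kinds of match as Cdk1.

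**Figure D1:**
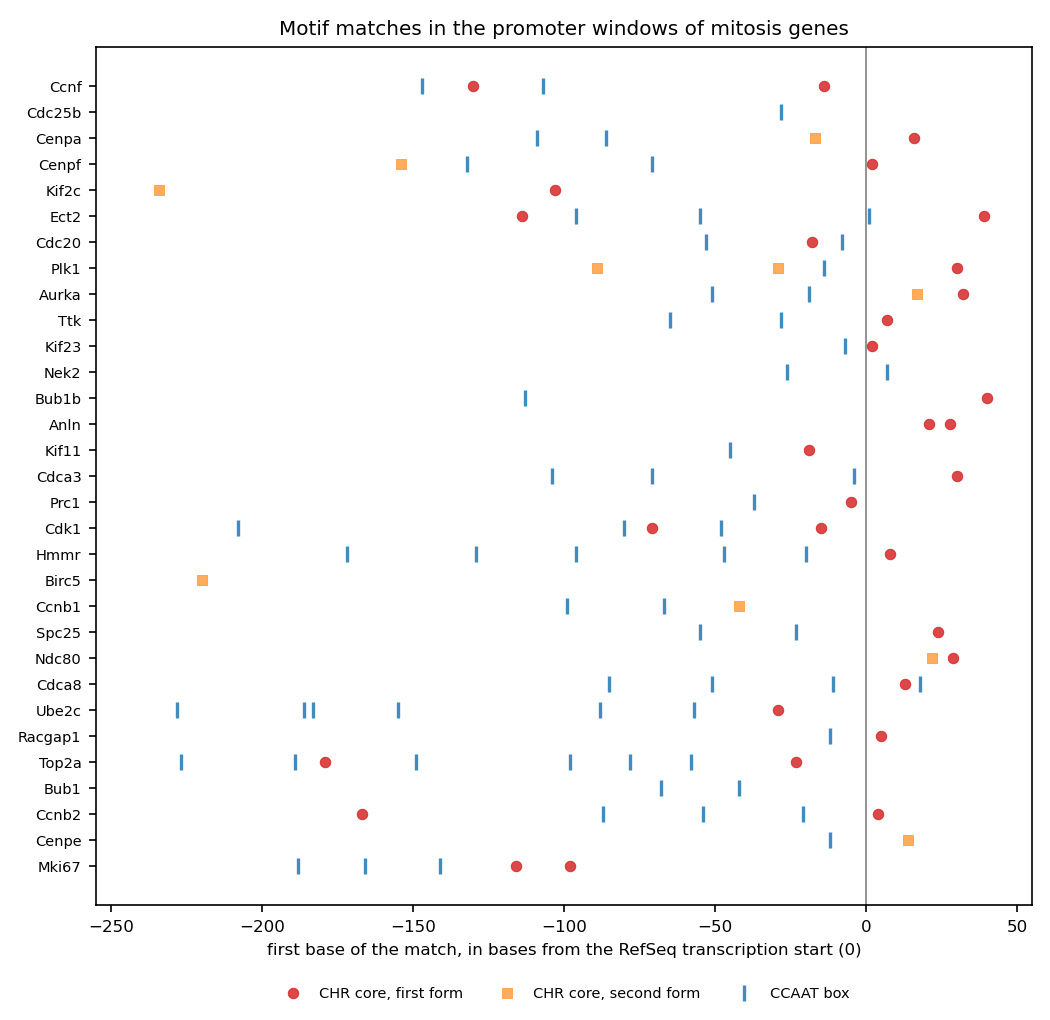
Positions of the searched letters in the RefSeq windows of 31 mitosis genes that held at least 1 match; the horizontal axis gives bases from the transcription start (0), circles the first form of the CHR core, squares its second form and bars the CCAAT box. Genes are ordered from the lowest LPS effect in macrophages (top) to the highest, and matches are seen along the whole of that order.

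RNA was sequenced at 15651758 to 20281443 assigned reads per library, recovered from the steps of the FPKM values. The lowest count of any mitosis gene in any library was 8 reads. Osteoclast markers such as Ctsk and Mmp9 were all at 1 FPKM or more in each of the 6 osteoclast libraries (10 of 10 genes), and the list summed to 16.3 to 28.98 FPKM in macrophages and to 29220 to 32220 FPKM in osteoclasts. Of 8 macrophage markers, 8 were at 1 FPKM or more in every macrophage library and 6 in every osteoclast library. Without LPS, Mrc1 was at 290.4 to 295.8 FPKM in macrophages and 2.39 to 2.80 FPKM in osteoclasts. In the same order, Adgre1 was at 424.3 to 430.7 and 31.2 to 37.0 FPKM. Cx3cr1 was at 138.8 to 146.5 and 0.381 to 0.674 FPKM. Cd14, Fcgr1 and Mertk were also lower in untreated osteoclasts. Csf1r was lowered less, from 436.4 to 443.9 FPKM to 302.7 to 316.3 FPKM, and Cd68 was higher there. Stromal markers summed to 25.5 to 35.8 FPKM in macrophages, mainly Col1a1 and Col1a2, and to 0.205 to 0.955 FPKM in osteoclasts, while Lum was at 0 in all 12 libraries and Dcn at 0 in the macrophages. Neutrophil markers summed to 5.62 to 16.4 FPKM in macrophages and 0.247 to 1.88 FPKM in osteoclasts, with S100a8, S100a9 and Ngp above 1 FPKM in every macrophage library and Ly6g and Elane at or near 0. The part of these cells in the results was not tested. Lymphocyte and erythroid markers summed to at most 0.171 FPKM in every library. Of the dendritic cell markers, Xcr1 was at 5.10 to 5.69 FPKM in LPS-treated macrophages and below 1 FPKM elsewhere, and Flt3 was near 0 throughout.

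The mitosis genes were much lower in osteoclasts than in macrophages. Their summed level was 560.5, 474.9 and 511.8 FPKM in untreated macrophages, 358.2, 343.6 and 357.9 FPKM in macrophages with LPS, 88.1, 77.9 and 80.6 FPKM in untreated osteoclasts, and 86.7, 67.7 and 81.8 FPKM in LPS-treated osteoclasts. The macrophage and osteoclast libraries were far apart, the LPS-treated macrophages lay below the untreated ones without overlap, and the 2 osteoclast groups overlapped. The sum was 515.8 ± 43.0 FPKM (SD, n = 3) in untreated macrophages and 82.2 ± 5.31 FPKM (SD, n = 3) in untreated osteoclasts, a ratio of 15.9%. With LPS it was 353.2 ± 8.32 FPKM and 78.7 ± 9.84 FPKM (SD, n = 3), a ratio of 22.3%. In a bulk culture, fewer dividing cells and less of each transcript per cell cannot be told apart. As a share of assigned reads, the 40 genes took 0.294% to 0.342% in untreated macrophages, 0.151% to 0.156% in LPS-treated macrophages and 0.0279% to 0.0398% in osteoclasts.

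**Figure D2:**
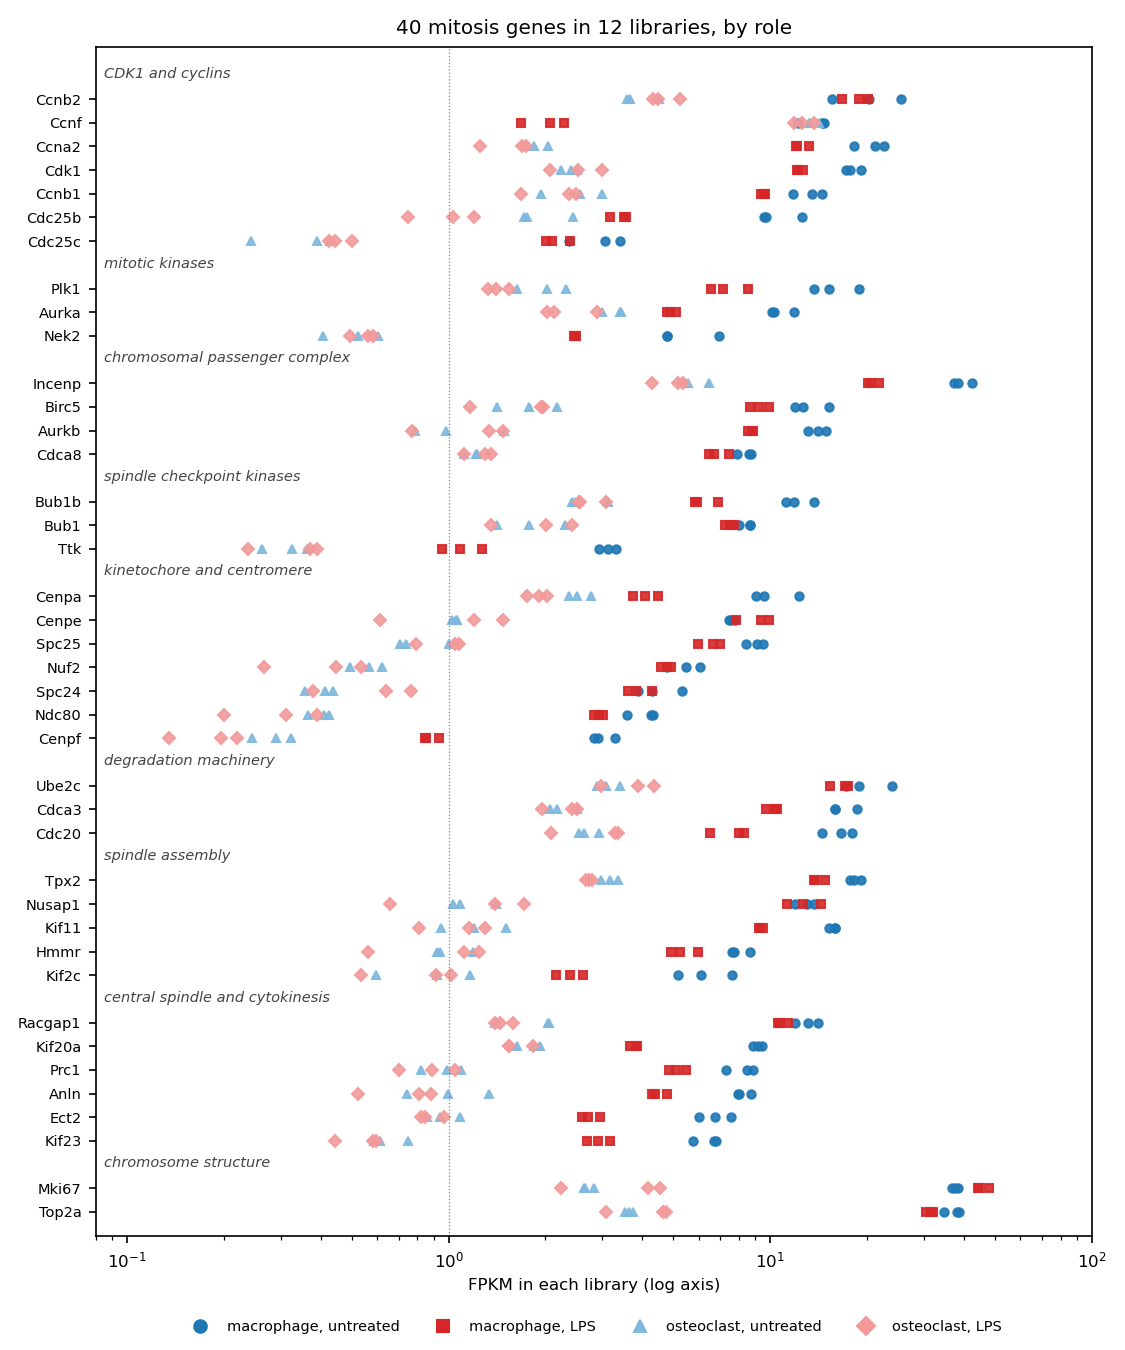
FPKM of the 40 mitosis genes in each of the 12 libraries on a log axis, grouped by role; circles are untreated macrophages, squares LPS-treated macrophages, triangles untreated osteoclasts and diamonds LPS-treated osteoclasts. Apart from Ccnf, whose untreated groups coincide, every gene has its osteoclast libraries to the left of its macrophage libraries.

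Untreated osteoclasts were compared with untreated macrophages for the baseline. Limma called 39 of the 40 genes lower in osteoclasts, against 39.0% of all genes tested that were called lower. The exception was Ccnf (cyclin F), which did not pass the threshold. The counts and medians here include the 8 genes that met the condition for testing through macrophage libraries alone. For those 8, a lower level in osteoclasts follows in part from that condition. With no such condition, 39 of the 40 were also called lower. The median log2 difference of the 40 genes was -2.13 on the log2(FPKM + 1) scale, where changes of low genes look smaller than they are, and that of all genes tested was 0.00. In terms of mean FPKM, the median gene of the 40 stood at 13.3% of its macrophage level. The libraries did not overlap and were lower in osteoclasts for 39 genes, against 40.7% of all genes, and for 0 they were higher without overlap, against 40.6%. No gene of the 40 was called higher by limma, also at an unadjusted p under 0.05 (0 genes) and in limma's voom on recovered reads (0 genes). Rescaled to TPM (transcript units that give every library the same sum), the count called lower was 40 and included Ccnf, against 57.0% of all genes. That scaling moved the median of all genes to -0.38.

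**Figure D3:**
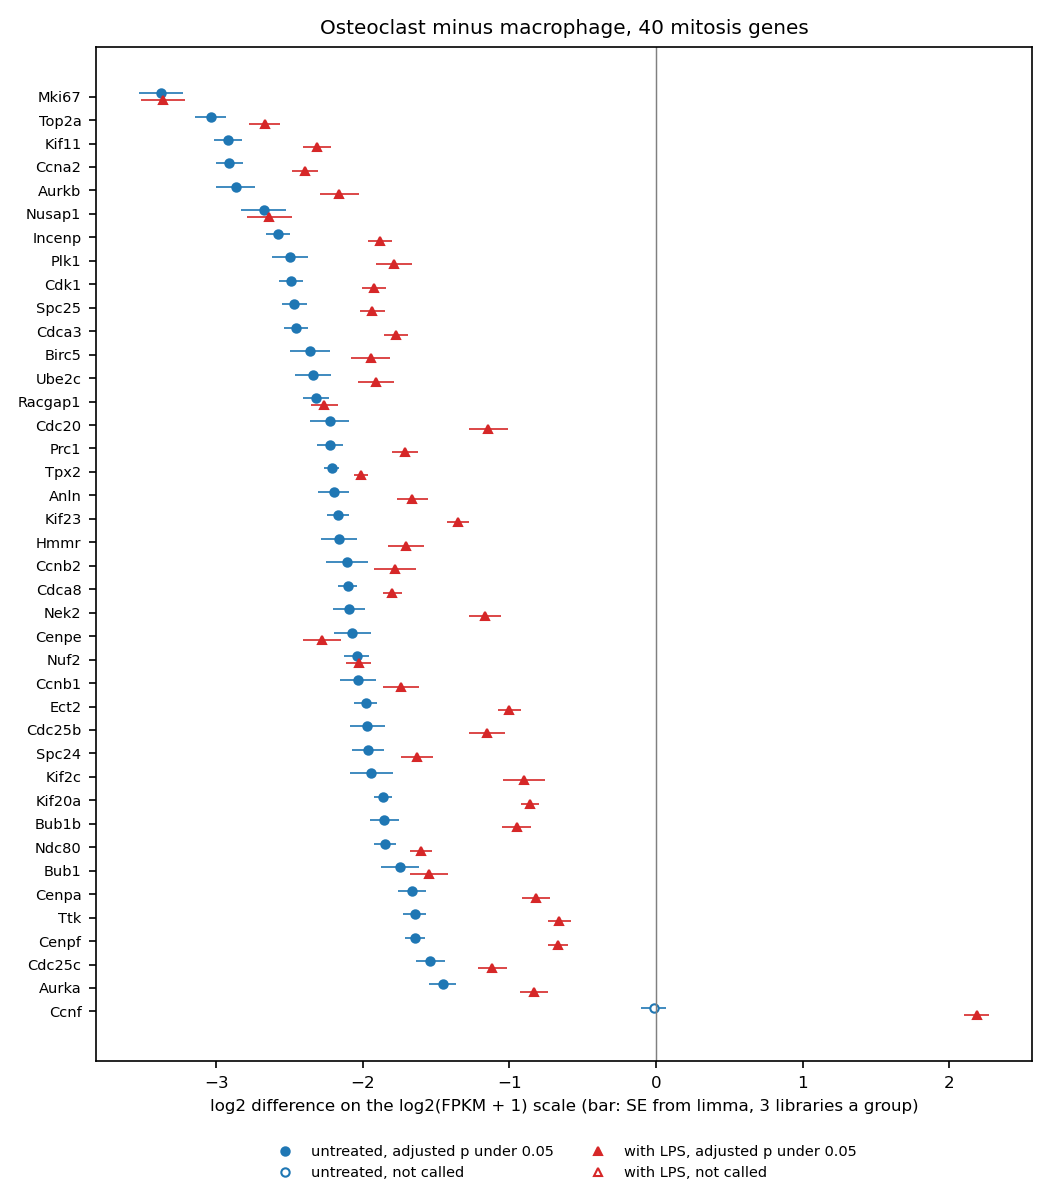
Log2 difference between osteoclasts and macrophages on the log2(FPKM + 1) scale for the 40 mitosis genes, without LPS (circles) and with LPS (triangles), with the standard error of limma as bars and 3 libraries per group. All genes but Ccnf lie left of 0 in both comparisons, and Ccnf lies near 0 without LPS and at 2.19 with LPS.

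LPS lowered most mitosis genes in macrophages within 3 h. Limma called 31 of the 40 genes lower, against 33.1% of all genes, and none higher, against 36.8% of all genes. The median log2 difference was -0.61 for the 40 genes and 0.02 for all genes tested, and 38 of the 40 were below 0. The libraries did not overlap for 32 genes in the downward direction (35.2% of all genes) and for 2 in the upward direction (38.8% of all genes), which were Mki67 and Cenpe. These 2 genes were not called, 0 genes were higher at an unadjusted p under 0.05, and limma's voom on recovered reads called both higher, as did the fit of the macrophage libraries alone and the fit without LPS-treated osteoclast replicate 2. The scaling matters for small changes here. Rescaled to TPM, all 40 genes were below 0, with a median of -1.28 for the 40 and -0.55 for all genes. All but Mki67 and Cenpe (38) were called lower, against 70.0% of all genes. Higher genes made up 18.5% of all calls instead of 52.6%. With quantile normalization, Cenpe alone was above 0, higher genes made up 37.0% of all calls, and the medians were -0.84 for the 40 and -0.14 for all genes. Relative to the median of all genes, that of the 40 was lower by a similar amount in the 3 scalings, with differences of -0.63 as deposited, -0.72 in TPM and -0.70 after quantile normalization. Among the macrophage libraries, untreated replicate 1 held the highest of its group's values for 34 of the 40 genes.

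With the same LPS treatment in osteoclasts, limma called 3 of the 40 lower (Cdc25b, Aurka and Tpx2), or 7.5%, near the 6.59% of all genes, and 0 higher, against 11.1% of all genes. At an unadjusted p under 0.05, 6 genes were lower and 0 higher, and voom called 2 lower and 0 higher. The median log2 difference was -0.06 for the 40 genes and 0.01 for all genes, and 22 of the 40 were below 0. The libraries did not overlap for 7 genes in the downward direction, against 15.1% of all genes, and for 0 upward, against 19.0%. LPS-treated osteoclast replicate 2 stood low, with the lowest of its group's values for 31 of the 40 genes. Of the 8 macrophage markers, 6 were also lowest of the group in that library, such as Adgre1 (73.1, 42.5 and 70.9 FPKM in replicates 1 to 3) and Mrc1 (3.35, 1.62 and 3.41 FPKM), and 2 were highest there, Csf1r (285.9, 303.5 and 289.0 FPKM) and Cd68 (1351, 1446 and 1325 FPKM). The list summed to 1772, 1830 and 1740 FPKM in these replicates, most of it from Csf1r and Cd68. Cd68 was higher in untreated osteoclasts (1362 to 1447 FPKM) than in untreated macrophages (635 to 692 FPKM), so this sum does not follow macrophages alone. The osteoclast markers summed to 29965, 32220 and 29220 FPKM in replicates 1 to 3. The part of residual macrophages in the result was not tested. Rescaled to TPM, 6 genes were called lower, adding Cenpa, Plk1 and Incenp, against 10.8% of all genes. After quantile normalization 4 of the 40 were called lower, with Cenpf added to the 3 above, against 13.4% of all genes. Without LPS-treated osteoclast replicate 2, limma called 1 gene lower (Cdc25b) and 2 higher (Mki67 and Top2a). The count of lower genes was also 1 without untreated osteoclast replicate 1 and without LPS-treated osteoclast replicate 3.

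**Figure D4:**
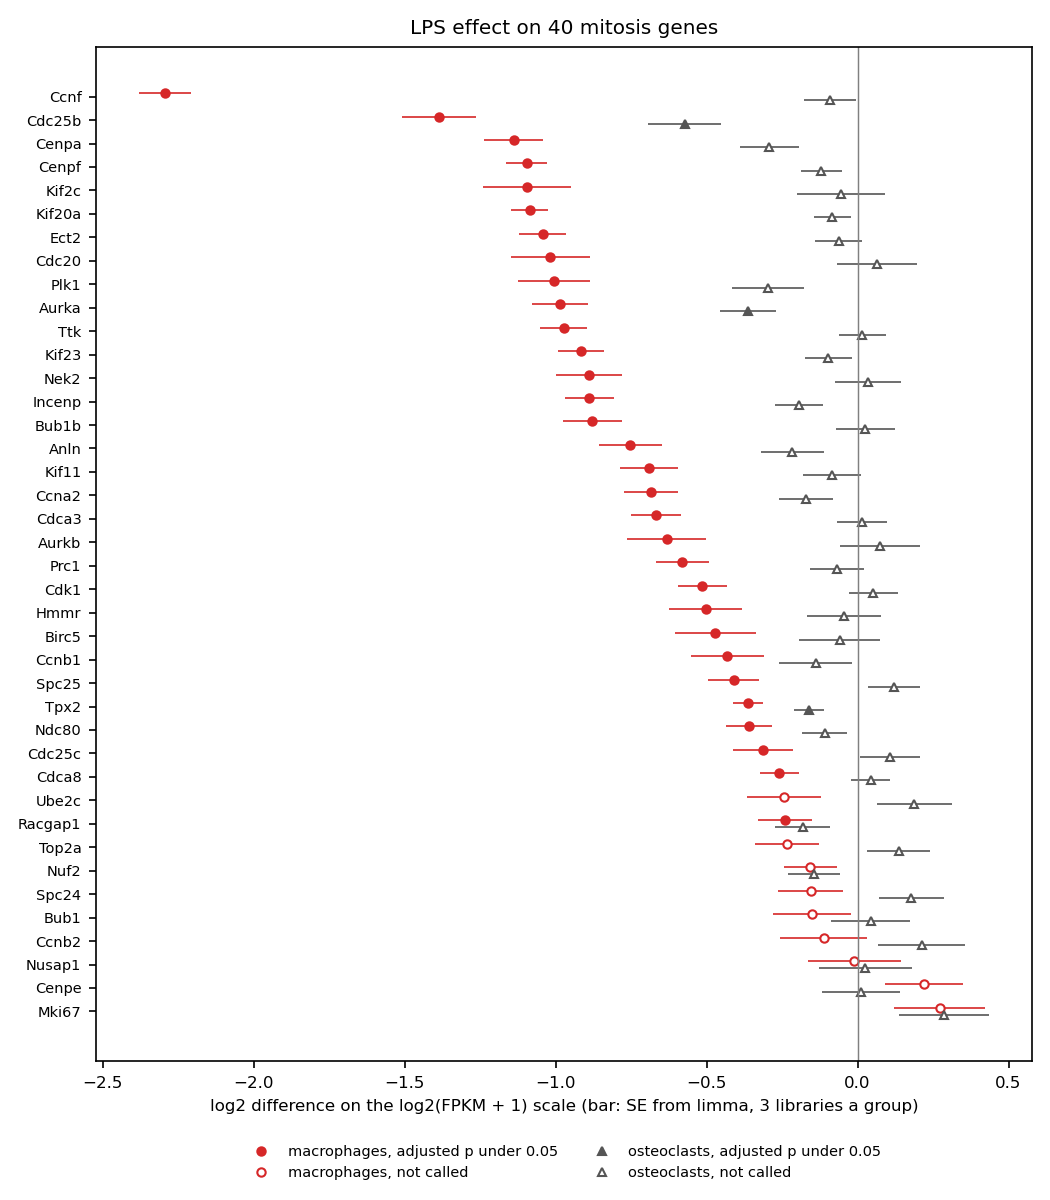
LPS effect on the 40 mitosis genes as a log2 difference on the log2(FPKM + 1) scale, in macrophages (circles) and osteoclasts (triangles), with the standard error of limma as bars and 3 libraries per group; filled symbols have an adjusted p under 0.05. In macrophages 31 symbols are filled, all left of 0, and in osteoclasts 3 are filled; after rescaling to TPM, the symbols right of 0 in macrophages would also lie left of it.

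The LPS effects of the cell types were compared by the interaction, the effect in osteoclasts minus that in macrophages. It was called above 0 for 27 of the 40 genes, against 26.6% of all genes, and below 0 for none, against 30.0% of all genes. The count below 0 was 0 also at an unadjusted p under 0.05 and in voom, and the count above 0 in voom was 20. Its median was 0.53 for the 40 genes and -0.01 for all genes. Rescaled to TPM, the count above 0 was 38, against 63.3% of all genes. The median there was 1.15 for the 40 and 0.51 for all genes, and higher genes made up 82.0% of all calls instead of 47.0%. After quantile normalization the count was 32, against 36.1% of all genes, and higher genes made up 59.9% of all calls. With LPS in both cell types, 39 genes were called lower in osteoclasts (43.0% of all genes) and 1, Ccnf, higher (40.9% of all genes). The 39 again include the 8 genes that met the condition for testing through macrophage libraries alone. The libraries did not overlap for the same counts, 39 downward (42.9% of all genes) and 1 upward (40.7%). The median log2 difference was then -1.72, against -0.02 for all genes. The LPS comparisons share no library with each other, but the interaction uses all 12, and each cell type comparison uses libraries of an LPS comparison. All comparisons also share 1 estimate of the spread per gene, taken from all 12 libraries. The spread of osteoclast libraries thus enters the p-values of the LPS effect in macrophages, and the reverse.

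Cdk1, its cyclins and its activating phosphatases formed the first role, with 7 genes. Limma called 6 of the 7 lower in osteoclasts without LPS, against 39.0% of all genes. It called 6 lower with LPS in macrophages, against 33.1%, and 1 lower with LPS in osteoclasts, against 6.59%. The same shares of all genes apply to the counts of the roles that follow. Ccnf (ENSMUSG00000072082, GRCm38 chromosome 17, 24222198 to 24251484), an F-box protein that marks proteins for destruction and does not activate Cdk1, was at 14.5, 12.2 and 14.7 FPKM in untreated macrophages. It was at 2.07, 2.29 and 1.68 FPKM with LPS, against 13.3, 13.2 and 14.2 FPKM in untreated osteoclasts and 12.5, 13.7 and 11.8 FPKM in LPS-treated osteoclasts. Only the LPS-treated macrophages stood apart, and the other 3 groups overlapped. The LPS effect in macrophages was -2.29 (SE 0.09, adjusted p 2.37e-10), which was the lowest of the 40, and mean FPKM was 6.84-fold lower. In osteoclasts the LPS effect was -0.09 (SE 0.09, adjusted p 0.531), and the interaction was 2.20 (SE 0.12, adjusted p 2.38e-08). Untreated osteoclasts and macrophages differed by -0.02 (SE 0.09, adjusted p 0.870), and by -0.43 (adjusted p 0.00286) after rescaling to TPM. Among the exons of GENCODE M21, those of Ccnf share 8 of 7800 bases with Mir5134 on the same strand and none with a gene on the other strand. The deposited values of Ccnf, however, fit a counted length of 3099 bases, so the gene model behind them was not that of GENCODE M21. The same held for Incenp, Kif11, Kif20a and Cdc25c, and the other 35 of the 40 matched.

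**Figure D5:**
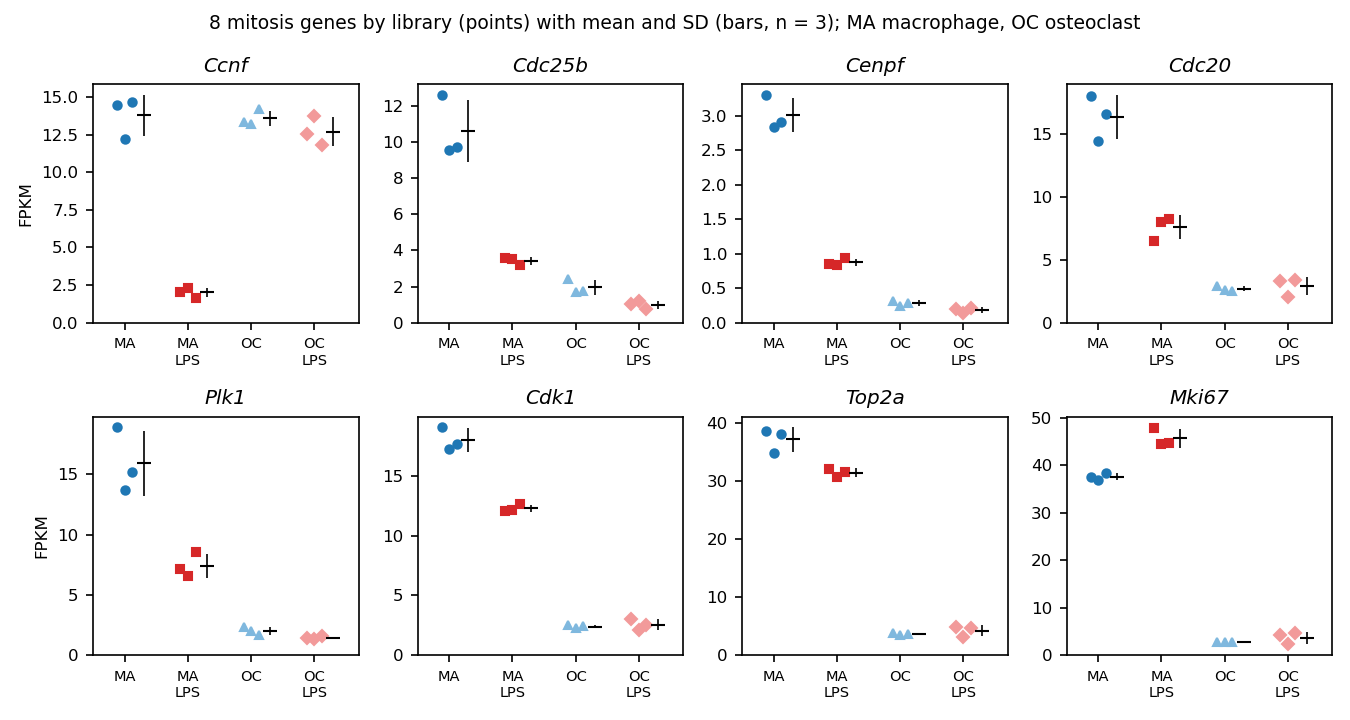
FPKM of 8 mitosis genes in each library (points), with the group mean and SD (bars, n = 3) for macrophages (MA) and osteoclasts (OC) without and with LPS; each panel has its own axis from 0. Ccnf is low in LPS-treated macrophages alone, 5 further genes are lower in LPS-treated than in untreated macrophages, and as deposited Top2a is slightly lower and Mki67 slightly higher there, the latter turning below 0 after rescaling to TPM or quantile normalization.

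Cdc25b, a phosphatase that activates Cdk1 (ENSMUSG00000027330, chromosome 2, 131186949 to 131198497), was at 12.6, 9.56 and 9.72 FPKM in untreated macrophages and at 3.57, 3.52 and 3.17 FPKM with LPS. In osteoclasts it was at 2.44, 1.71 and 1.75 FPKM untreated and 1.03, 1.20 and 0.750 FPKM with LPS. Its LPS-treated libraries were below the untreated ones in both cell types. The LPS effect was -1.39 (SE 0.12, adjusted p 6.38e-07) in macrophages and -0.57 (SE 0.12, adjusted p 0.00653) in osteoclasts. It was the lowest of the 40 in osteoclasts, and the interaction was 0.81 (SE 0.17, adjusted p 0.00161), which was not called in voom (0.61, adjusted p 0.0873). Cdc25c, the related phosphatase of late G2, was lower throughout, at 3.42, 2.37 and 3.05 FPKM in untreated macrophages, 2.10, 2.00 and 2.38 FPKM with LPS, 0.391, 0.427 and 0.243 FPKM in untreated osteoclasts and 0.442, 0.501 and 0.423 FPKM in LPS-treated osteoclasts. The macrophage groups of Cdc25c overlapped, its LPS effect there was -0.31 (SE 0.10, adjusted p 0.0138), and it did not pass the threshold without untreated macrophage replicate 1, with a pseudocount of 0.1 (adjusted p 0.0613) or after quantile normalization (adjusted p 0.0552).

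Ccnb2, a B-type cyclin (ENSMUSG00000032218, chromosome 9, 70407692 to 70421547), had the highest mean of this role, at 25.6, 15.6 and 20.3 FPKM in untreated macrophages, 20.2, 16.7 and 18.9 FPKM with LPS, 3.57, 3.67 and 4.50 FPKM in untreated osteoclasts and 5.24, 4.49 and 4.33 FPKM in LPS-treated osteoclasts. The LPS-treated macrophages fell inside the range of the untreated ones, with an LPS effect of -0.11 (SE 0.14, adjusted p 0.507), and Ccnb2 was called lower in TPM (-0.75) and after quantile normalization (-0.51, adjusted p 0.0104). Ccna2, the cyclin of S phase and mitotic entry, was at 22.6, 18.2 and 21.1 FPKM in untreated macrophages, 12.05, 13.2 and 12.1 FPKM with LPS, 2.04, 1.74 and 1.84 FPKM in untreated osteoclasts and 1.74, 1.26 and 1.69 FPKM in LPS-treated osteoclasts. It was 11.0-fold lower in untreated osteoclasts (log2 difference -2.91, SE 0.09, adjusted p 2.64e-11), and its LPS effect in macrophages was -0.68 (SE 0.09, adjusted p 2.52e-05). Cdk1 fell by 0.51 and Ccnb1, the other B-type cyclin, by 0.43 on the log2 scale with LPS in macrophages. The 3 mitotic cyclins Ccna2, Ccnb1 and Ccnb2 thus lay between -0.68 and -0.11 in that comparison as deposited, and Ccnf at -2.29.

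The mitotic kinases Plk1, Aurka and Nek2 were all called lower in osteoclasts and all called lower with LPS in macrophages. Plk1, which acts at centrosomes, kinetochores and the midzone (ENSMUSG00000030867, chromosome 7, 122159439 to 122169873), was at 18.9, 13.7 and 15.2 FPKM in untreated macrophages, 7.13, 6.55 and 8.51 FPKM with LPS, 2.32, 2.02 and 1.63 FPKM in untreated osteoclasts and 1.40, 1.33 and 1.54 FPKM in LPS-treated osteoclasts. Its 4 groups did not overlap. The LPS effect was -1.01 (SE 0.12, adjusted p 1.10e-05) in macrophages and -0.30 (SE 0.12, adjusted p 0.117) in osteoclasts. Aurka, the spindle pole kinase (ENSMUSG00000027496, chromosome 2, 172356190 to 172370535), was at 11.9, 10.3 and 10.1 FPKM in untreated macrophages, 5.08, 4.90 and 4.78 FPKM with LPS, 3.40, 3.44 and 3.00 FPKM in untreated osteoclasts and 2.89, 2.02 and 2.12 FPKM in LPS-treated osteoclasts. After Ccnf it was the least lowered gene in untreated osteoclasts, at -1.46 (SE 0.09, adjusted p 2.08e-08). Its LPS effect was -0.99 (SE 0.09, adjusted p 1.21e-06) in macrophages and -0.36 (SE 0.09, adjusted p 0.0189) in osteoclasts. The osteoclast call ended when untreated replicate 1 or 2 or LPS-treated replicate 2 or 3 was left out, with adjusted p of 0.0604 to 0.0668, and also with no filter and in the fit of the osteoclast libraries alone. Nek2, a centrosome kinase, had an LPS effect of -0.89 (SE 0.11, adjusted p 1.34e-05) in macrophages and 0.03 (SE 0.11, adjusted p 0.869) in osteoclasts.

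The chromosomal passenger complex joins the kinase Aurkb to the scaffold Incenp, the survivin protein Birc5 and the borealin protein Cdca8, and corrects the attachment of chromosomes. All 4 genes were called lower in osteoclasts and all 4 lower with LPS in macrophages, and none was called with LPS in osteoclasts. Incenp (ENSMUSG00000024660, chromosome 19, 9872296 to 9899551) had the highest mean of the 4, at 42.5, 37.3 and 38.5 FPKM in untreated macrophages, 20.2, 20.6 and 21.7 FPKM with LPS, 5.56, 5.35 and 6.46 FPKM in untreated osteoclasts and 5.18, 4.30 and 5.35 FPKM in LPS-treated osteoclasts. Its macrophage groups did not overlap, and its osteoclast groups nearly touched. The LPS effect was -0.89 (SE 0.08, adjusted p 8.33e-07) in macrophages, and the other 3 lay between -0.63 (Aurkb) and -0.26 (Cdca8). Birc5, at -0.47, was the only gene of the complex without a called interaction (0.41, SE 0.19, adjusted p 0.0852), and its interaction was called in some alternatives, such as in TPM, after quantile normalization and without LPS-treated osteoclast replicate 2 or untreated osteoclast replicate 1. Aurkb stood at 7.71% of its macrophage level in untreated osteoclasts, Birc5 at 13.5%, Cdca8 at 14.1% and Incenp at 14.7%.

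The checkpoint kinases Bub1, Bub1b and Ttk delay anaphase at unattached kinetochores, and all 3 were called lower in osteoclasts. Bub1b (ENSMUSG00000040084, chromosome 2, 118598211 to 118641591) was at 13.7, 11.2 and 11.9 FPKM in untreated macrophages, 5.90, 5.83 and 6.89 FPKM with LPS, 3.13, 2.46 and 2.42 FPKM in untreated osteoclasts and 3.10, 2.56 and 2.54 FPKM in LPS-treated osteoclasts. LPS separated the macrophage groups, whereas the osteoclast groups overlapped. Ttk, at lower levels, was at 3.14, 2.93 and 3.30 FPKM in untreated macrophages, 1.27, 0.953 and 1.08 FPKM with LPS, 0.364, 0.325 and 0.263 FPKM in untreated osteoclasts and 0.370, 0.237 and 0.390 FPKM in LPS-treated osteoclasts. The LPS effect in macrophages was -0.88 (SE 0.10, adjusted p 5.69e-06) for Bub1b and -0.97 (SE 0.08, adjusted p 2.70e-07) for Ttk. Bub1 was at -0.15 (SE 0.13, adjusted p 0.321), although its libraries did not overlap, and was called lower in TPM and in the fit of the macrophage libraries alone (adjusted p 0.029). Interactions were called for Bub1b (0.90) and Ttk (0.99) and not for Bub1 (0.20, adjusted p 0.395).

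Kinetochore and centromere genes were 7, all called lower in osteoclasts, and their LPS effects in macrophages ran from -1.14 to 0.22. Cenpa, the centromeric histone H3 variant (ENSMUSG00000029177, chromosome 5, 30666777 to 30674830), was at 12.3, 9.05 and 9.59 FPKM in untreated macrophages, 4.48, 3.75 and 4.09 FPKM with LPS, 2.77, 2.37 and 2.50 FPKM in untreated osteoclasts and 2.03, 1.90 and 1.76 FPKM in LPS-treated osteoclasts. Its LPS-treated libraries lay below the untreated ones in both cell types. The LPS effect was -1.14 (SE 0.10, adjusted p 4.99e-07) in macrophages and -0.29 (SE 0.10, adjusted p 0.0610) in osteoclasts. In osteoclasts Cenpa was called lower in several alternatives, with a pseudocount of 0.1 (-0.41, adjusted p 0.0321), in TPM (-0.43, adjusted p 0.0174), in the fit of the osteoclast libraries alone (adjusted p 0.0444) and without untreated macrophage replicate 1 (adjusted p 0.0157). Cenpf, a large protein of the outer kinetochore (ENSMUSG00000026605, chromosome 1, 189640606 to 189688086), was at 3.30, 2.84 and 2.92 FPKM in untreated macrophages, 0.853, 0.842 and 0.936 FPKM with LPS, 0.323, 0.245 and 0.290 FPKM in untreated osteoclasts and 0.196, 0.135 and 0.220 FPKM in LPS-treated osteoclasts. All 4 groups were apart. Its LPS effect in macrophages was -1.10 (SE 0.07, adjusted p 2.38e-08), 3.44-fold by mean FPKM. Its log2 difference of -1.64 in untreated osteoclasts was among the least negative of the 40, but mean FPKM was 10.5-fold lower, since the scale compresses values below 1 FPKM.

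Cenpe, the kinesin that moves chromosomes to the metaphase plate (ENSMUSG00000045328, chromosome 3, 135212537 to 135273611), was the other gene besides Mki67 with a value above 0 in macrophages. It was at 7.78, 7.45 and 7.55 FPKM in untreated macrophages, 9.91, 7.85 and 9.36 FPKM with LPS, 1.02, 1.06 and 1.05 FPKM in untreated osteoclasts and 1.20, 0.610 and 1.47 FPKM in LPS-treated osteoclasts. Every LPS-treated macrophage library was above every untreated one. Its LPS effect there was 0.22 (SE 0.13, adjusted p 0.151), with an adjusted p of 0.0240 without LPS-treated osteoclast replicate 2, and -0.39 (adjusted p 0.0565) after rescaling to TPM. Of the 4 subunits of the Ndc80 complex, which binds microtubules, Spc25 (-0.41) and Ndc80 (-0.36) were called lower with LPS in macrophages, and Nuf2 (-0.16, adjusted p 0.129) and Spc24 (-0.16, adjusted p 0.219) were not. In TPM both Nuf2 and Spc24 were called lower, at -0.78, and Nuf2 also without untreated macrophage replicate 2 (-0.23, adjusted p 0.0403). Spc24 was at 5.32, 4.30 and 3.89 FPKM in untreated macrophages, 3.84, 4.30 and 3.62 FPKM with LPS, 0.358, 0.437 and 0.412 FPKM in untreated osteoclasts and 0.765, 0.378 and 0.639 FPKM in LPS-treated osteoclasts. The groups of each cell type overlapped, and in untreated osteoclasts Spc24 stood at 8.93%, Spc25 at 9.05%, Ndc80 at 9.85% and Nuf2 at 10.3% of the macrophage level.

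Cdc20, which activates the anaphase-promoting complex, Ube2c, its ubiquitin-conjugating enzyme, and Cdca3, linked to the destruction of Wee1, were all called lower in osteoclasts. Ube2c (ENSMUSG00000001403, chromosome 2, 164769898 to 164778822) was at 24.0, 17.3 and 18.9 FPKM in untreated macrophages, 17.5, 15.4 and 17.1 FPKM with LPS, 3.42, 2.89 and 3.08 FPKM in untreated osteoclasts and 4.35, 2.97 and 3.88 FPKM in LPS-treated osteoclasts. The groups overlapped within each cell type, and the LPS effect in macrophages was -0.24 (SE 0.12, adjusted p 0.0989). Among other alternatives, Ube2c was called lower in TPM (-0.89), after quantile normalization (-0.62, adjusted p 0.000904), in voom (adjusted p 0.0302) and without untreated macrophage replicate 2. In macrophages Cdc20 fell from 16.4 ± 1.78 FPKM to 7.59 ± 0.952 FPKM with LPS (SD, n = 3), which was -1.02 on the log2 scale (SE 0.13, adjusted p 2.14e-05). In osteoclasts Cdc20 was at 2.70 ± 0.200 FPKM and, with LPS, 2.92 ± 0.724 FPKM (SD, n = 3). Its interaction of 1.08 (SE 0.19, adjusted p 0.000349) was second to that of Ccnf on the log2(FPKM + 1) scale. Cdca3 was at -0.67 (SE 0.08, adjusted p 1.43e-05) with LPS in macrophages and 0.01 (SE 0.08, adjusted p 0.928) in osteoclasts.

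The spindle assembly genes were 5, called lower in osteoclasts without exception, and 4 of them fell with LPS in macrophages. Kif11, the motor that pushes spindle poles apart (ENSMUSG00000012443, chromosome 19, 37376403 to 37421859), was at 15.9, 15.9 and 15.2 FPKM in untreated macrophages, 9.48, 9.22 and 9.27 FPKM with LPS, 1.51, 0.946 and 1.20 FPKM in untreated osteoclasts and 1.30, 0.808 and 1.16 FPKM in LPS-treated osteoclasts. It was 12.9-fold lower in untreated osteoclasts (log2 difference -2.92, SE 0.10, adjusted p 4.81e-11). Tpx2, which activates Aurka on the spindle (ENSMUSG00000027469, chromosome 2, 152847964 to 152895321), was at 19.1, 17.7 and 18.3 FPKM in untreated macrophages, 14.8, 13.6 and 13.8 FPKM with LPS, 3.17, 2.99 and 3.37 FPKM in untreated osteoclasts and 2.79, 2.73 and 2.68 FPKM in LPS-treated osteoclasts. Its replicates were close and its groups did not overlap. The LPS effect of Tpx2 was -0.36 (SE 0.05, adjusted p 3.64e-05) in macrophages and -0.16 (SE 0.05, adjusted p 0.0456) in osteoclasts. The osteoclast call ended when any of 10 of the 12 libraries was left out, and the adjusted p was then 0.0528 to 0.163; it also ended with no filter, in voom and in the fit of the osteoclast libraries alone. Nusap1, a microtubule-binding protein, was at 13.0, 11.95 and 13.6 FPKM in untreated macrophages, 14.4, 11.3 and 12.7 FPKM with LPS, 1.40, 1.04 and 1.09 FPKM in untreated osteoclasts and 1.72, 0.655 and 1.39 FPKM in LPS-treated osteoclasts. Both pairs of groups overlapped, and its LPS effect in macrophages was -0.01 (SE 0.15, adjusted p 0.954), or -0.64 (adjusted p 0.01) in TPM. Kif2c, a kinesin that takes microtubules apart, was at -1.09 (SE 0.14, adjusted p 2.57e-05) in that comparison, and Hmmr, a spindle-associated receptor for hyaluronan, at -0.50 (SE 0.12, adjusted p 0.00283).

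All 6 genes of the central spindle and cytokinesis were called lower in osteoclasts and lower with LPS in macrophages, and none with LPS in osteoclasts. Racgap1, part of centralspindlin with Kif23 (ENSMUSG00000023015, chromosome 15, 99620496 to 99651656), was at 14.1, 11.97 and 13.1 FPKM in untreated macrophages, 10.6, 10.7 and 11.4 FPKM with LPS, 2.05, 2.03 and 1.40 FPKM in untreated osteoclasts and 1.59, 1.45 and 1.39 FPKM in LPS-treated osteoclasts. Its macrophage groups did not overlap, yet its LPS effect of -0.24 (SE 0.09, adjusted p 0.0317) was small. Its call ended when untreated macrophage replicate 1 or 3 or LPS-treated macrophage replicate 1 or 2 was left out, with a pseudocount of 0.1 and with no filter. With LPS in osteoclasts Racgap1 was at -0.18 (adjusted p 0.197), and it was called lower without untreated osteoclast replicate 3 (-0.30, adjusted p 0.0163). Its partner Kif23 fell further, at -0.92 (SE 0.08, adjusted p 4.27e-07). Ect2, the exchange factor that switches on RhoA for the contractile ring, was at -1.04 (SE 0.08, adjusted p 1.59e-07). The midzone kinesin Kif20a was at -1.09 (SE 0.06, adjusted p 8.96e-09), the ring scaffold Anln at -0.75 (SE 0.11, adjusted p 4.23e-05) and the microtubule bundler Prc1 at -0.58 (SE 0.09, adjusted p 8.73e-05). Interactions were called for 5 of the 6 and not for Racgap1 (0.06, SE 0.13, adjusted p 0.721).

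Mki67 and Top2a act on the chromosomes themselves, Mki67 as a coat of mitotic chromosomes and a common marker of dividing cells, Top2a as the enzyme that untangles sister DNA. With Incenp they had the highest levels of the 40 in untreated macrophages. They showed the lowest differences in osteoclasts on the log2(FPKM + 1) scale. By mean FPKM, Top2a was lowered less in untreated osteoclasts than some others, such as Aurkb and Kif11. Mki67 (ENSMUSG00000031004, chromosome 7, 135689784 to 135716361) was at 37.6, 36.9 and 38.3 FPKM in untreated macrophages, 47.9, 44.4 and 44.6 FPKM with LPS, 2.83, 2.64 and 2.65 FPKM in untreated osteoclasts and 4.16, 2.24 and 4.55 FPKM in LPS-treated osteoclasts. Every LPS-treated macrophage library was above every untreated one. Mki67 was 13.9-fold lower in untreated osteoclasts (log2 difference -3.38, SE 0.15, adjusted p 6.68e-10). Its LPS effect in macrophages was 0.27 (SE 0.15, adjusted p 0.126), with an adjusted p of 0.000248 without LPS-treated osteoclast replicate 2. After rescaling to TPM the effect was -0.37 (adjusted p 0.0606), and after quantile normalization -0.33 (adjusted p 0.0501), so its direction depended on the scaling. In osteoclasts its LPS effect was 0.29 (SE 0.15, adjusted p 0.223), and 0.53 (adjusted p 2.56e-05) without replicate 2.

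Top2a (ENSMUSG00000020914, chromosome 11, 98992943 to 99024189) was at 38.6, 34.7 and 38.0 FPKM in untreated macrophages, 32.1, 30.6 and 31.6 FPKM with LPS, 3.75, 3.53 and 3.64 FPKM in untreated osteoclasts and 4.75, 3.08 and 4.64 FPKM in LPS-treated osteoclasts. The LPS-treated macrophages were below the untreated ones, and of the LPS-treated osteoclasts only replicate 2 was below the untreated ones. The LPS effect was -0.23 (SE 0.11, adjusted p 0.0674) in macrophages and 0.14 (SE 0.11, adjusted p 0.428) in osteoclasts, where it was 0.30 (adjusted p 0.00213) without replicate 2. Among other alternatives, Top2a was called lower in macrophages in TPM (-0.88), after quantile normalization (-0.80, adjusted p 1.51e-05), in voom (adjusted p 0.00708), in the fit of the macrophage libraries alone (adjusted p 0.00388) and without LPS-treated osteoclast replicate 1 or 2 (adjusted p 0.0495 and 0.000843). Top2a was 10.2-fold lower in untreated osteoclasts (log2 difference -3.04, SE 0.11, adjusted p 7.08e-11). Neither Mki67 nor Top2a had a called interaction (0.01, adjusted p 0.961, and 0.37, adjusted p 0.0528) as deposited. Both interactions were called in TPM (0.63 and 0.97), after quantile normalization (0.59 and 0.90) and without LPS-treated osteoclast replicate 2 (0.26 and 0.53), and that of Top2a also in voom (0.43), with the stricter filter of 5 FPKM on the mean, and without untreated macrophage replicate 2, among others. Mki67, the usual marker of proliferation, was thus not called lower in an LPS comparison in which 31 of the 40 mitosis genes were called lower.

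The order of levels among the mitosis genes was much alike in the cell types. Across the 40 genes, log2 mean FPKM in untreated macrophages and untreated osteoclasts had a Pearson r of 0.836 and a Spearman rho of 0.869, which is across genes that share exon lengths and not across independent samples. Across the 40 genes, the LPS effects in macrophages and osteoclasts had an r of 0.524 and a rho of 0.515, and without Ccnf an r of 0.606. The LPS effect in macrophages had an r of -0.01 with exon length and 0.12 with the untreated level. The genes lie on 15 chromosomes, with 8 of them on chromosome 2. The sources used here do not say whether reads were counted by strand, which leaves genes with an antisense neighbour in their exons uncertain: of the GENCODE M21 exon bases of Kif20a, 29.3% are shared with Cdc23, of Ube2c 22.8% with Tnnc2, of Cdc25c 12.7% with Gm3550, of Ccna2 12.5% with Exosc9 and of Prc1 11.1% with Rccd1. Shares of 2.47% to 7.09% were found for Plk1, Nek2, Cdca8, Nusap1, Cdc20 and Cdc25b.

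Other mitosis genes were read from a list of 141, of which 138 were tested. In untreated osteoclasts 114 were called lower and 11 higher, against 39.0% and 38.8% of all genes, with a median of -0.93. With LPS in macrophages 77 were lower and 28 higher (median -0.27), against 33.1% and 36.8% of all genes. Rescaled to TPM, 122 were lower and 3 higher, against 70.0% and 15.9% of all genes in TPM. With LPS in osteoclasts 10 were lower and 4 higher (median -0.04), against 6.59% and 11.1% of all genes. The share called lower was thus near that of all genes. In TPM 24 were lower, against 10.8% of all genes, and after quantile normalization 21 were lower, against 13.4%. Interactions were called above 0 for 61 and below 0 for 21, against 26.6% and 30.0% of all genes. In TPM they were called for 116 and 3, against 63.3% and 13.9% of all genes. The 8 condensin genes, which compact chromosomes, were all called lower in untreated osteoclasts (median -1.76), against 39.0% of all genes. With LPS in macrophages 6 of them fell, against 33.1% of all genes. Of 15 cohesin and separase genes, 9 were lower and 2 higher in untreated osteoclasts, against 39.0% and 38.8% of all genes. With LPS in macrophages 7 fell and 6 rose, counts not far from the 33.1% and 36.8% of all genes. Rescaled to TPM, 13 fell and 2 rose, against 70.0% and 15.9% of all genes. The 17 genes of the anaphase-promoting complex and its partners had 9 lower and 4 higher in untreated osteoclasts (median -0.15, from -2.72 to 1.01), against 39.0% and 38.8% of all genes. With LPS in macrophages 6 were lower and 5 higher (median 0.00), near the 33.1% and 36.8% of all genes. The split depended on the scaling, and so did the shares of all genes. With LPS in macrophages 13 were lower in TPM (median -0.63), near the 70.0% of all genes, whose median was -0.55. After quantile normalization 11 were lower and 4 higher, against 45.8% and 26.9% of all genes. In untreated osteoclasts 12 were lower and 1 higher in TPM, against 57.0% and 24.3% of all genes. Of the 36 DNA replication genes, 34 were called lower in untreated osteoclasts (median -1.60), against 39.0% of all genes. With LPS in macrophages 22 were lower and 1 higher (median -0.29), against 33.1% and 36.8% of all genes. Rescaled to TPM, 35 were lower there, against 70.0% of all genes. In untreated osteoclasts and with LPS in macrophages, the medians of both lists lay closer to 0 than those of the 40 genes, a difference that was not tested.

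Among the other mitosis genes, the highest interactions on the log2(FPKM + 1) scale were those of Fbxo5 (1.86), E2f2 (1.81) and Wee1 (1.74). That of E2f2, which was below 1 FPKM in osteoclasts, was 0.22 as a log2 ratio of mean FPKM and was not called in voom (0.34, adjusted p 0.56). Fbxo5 (EMI1), an inhibitor of the anaphase-promoting complex, was at 12.2 ± 0.828 FPKM in untreated macrophages and 1.96 ± 0.105 FPKM with LPS (SD, n = 3), which was -2.16 on the log2 scale (SE 0.09, adjusted p 8.76e-10). Wee1, the kinase that restrains Cdk1, was at 8.03 ± 0.780 and 1.67 ± 0.419 FPKM in macrophages without and with LPS, and at 4.35 ± 0.540 and 4.23 ± 0.282 FPKM in osteoclasts (SD, n = 3). Wee1 fell by 1.77 on the log2 scale in macrophages and, at -0.03 (SE 0.12, adjusted p 0.895), was not called in osteoclasts. A restraint on mitosis and its activator Cdc25b were thus both lower in LPS-treated macrophages. Pttg1 (securin), which holds separase inactive, rose with LPS in both cell types, by 1.46 (SE 0.07, adjusted p 2.06e-09) in macrophages and 0.35 (SE 0.07, adjusted p 0.00422) in osteoclasts. It had the most negative interaction, at -1.11 (SE 0.10, adjusted p 1.43e-06). In untreated osteoclasts the lowest were Pbk at -3.22, Ckap2l at -2.76 and Fbxo5 at -2.72. The highest there were Mad1l1, a checkpoint protein of the kinetochore, at 1.38 (SE 0.08, adjusted p 6.05e-09), Anapc13 at 1.01 and the cohesin subunit Rad21 at 0.69.

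The regulators of this gene set were 20 genes. In untreated osteoclasts 15 were called lower and 1 higher, against 39.0% and 38.8% of all genes. With LPS in macrophages 13 were lower and 4 higher, against 33.1% and 36.8%. Rescaled to TPM, 17 were lower and 1, E2f5, higher, against 70.0% and 15.9% of all genes. Foxm1, which raises late cell cycle genes with the MuvB complex, was at 10.1 ± 0.855 FPKM in untreated macrophages, 5.18 ± 0.447 FPKM with LPS, 0.940 ± 0.213 FPKM in untreated osteoclasts and 0.763 ± 0.172 FPKM in osteoclasts with LPS (SD, n = 3). Mybl2, its partner on MuvB, was at 4.84 ± 0.484, 2.69 ± 0.758, 0.681 ± 0.0755 and 0.457 ± 0.0673 FPKM in the same order (SD, n = 3). Both fell with LPS in macrophages, Foxm1 by 0.85 (SE 0.10, adjusted p 9.24e-06) and Mybl2 by 0.68 (SE 0.13, adjusted p 0.000477), and neither was called in osteoclasts (adjusted p 0.394 and 0.308). The repressor Rbl1 (p107) had the opposite LPS response, from 9.08 ± 0.281 FPKM to 15.2 ± 0.433 FPKM in macrophages (SD, n = 3), which was 0.69 on the log2 scale (SE 0.06, adjusted p 1.19e-06), but 0.09 (adjusted p 0.293) after rescaling to TPM. Rbl2 (p130) was not called in macrophages, at 0.04 (SE 0.06, adjusted p 0.564), and was called lower, at -0.56, in TPM. Of the 5 MuvB and DREAM subunits and partners Lin9, Lin37, Lin52, Lin54 and E2f4, Lin52, Lin54 and E2f4 fell with LPS in macrophages, by 0.33, 0.55 and 0.31. In TPM all 5 were called lower, with Lin9 at -0.70 and Lin37 at -0.95, and Lin37 also without LPS-treated macrophage replicate 3 (-0.40, adjusted p 0.0435).

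The E2F factors went both ways with LPS in macrophages. E2f2, an activator at the start of S phase, fell from 7.38 ± 0.131 FPKM to 0.483 ± 0.0568 FPKM (SD, n = 3), which was -2.50 on the log2 scale (SE 0.08, adjusted p 3.10e-11). In osteoclasts E2f2 fell by 0.69 on that scale (SE 0.08, adjusted p 4.84e-05), to 4 to 6 reads per library. Mean FPKM of E2f2 was 15.3-fold lower with LPS in macrophages and 13.1-fold lower in osteoclasts, since the scale compresses values below 1 FPKM. E2f1 fell by 0.39, E2f3 by 0.71, E2f7 by 0.96 and E2f8 by 0.21, whereas E2f5 rose by 0.89 (SE 0.08, adjusted p 5.85e-07), also in TPM (adjusted p 0.00312). The call of E2f8 ended with a pseudocount of 0.1 and without untreated macrophage replicate 3 or LPS-treated macrophage replicate 1. In osteoclasts E2f8 was called higher, at 0.26 (SE 0.07, adjusted p 0.0178), with an interaction of 0.47 (adjusted p 0.00106); the osteoclast call ended in the fit of the osteoclast libraries alone and without untreated osteoclast replicate 2 or LPS-treated osteoclast replicate 1 or 3. Tfdp1 and Tfdp2, which pair with E2F proteins, fell by 0.23 and 0.52. Of the NF-Y subunits, which together bind CCAAT, Nfya fell by 0.93 (SE 0.07, adjusted p 1.45e-07), Nfyb rose by 0.49 (SE 0.07, adjusted p 7.11e-05) and Nfyc rose by 0.20 (SE 0.07, adjusted p 0.0239) as deposited. Rescaled to TPM, Nfyb was at -0.056 (adjusted p 0.529) and Nfyc was called lower, at -0.41 (adjusted p 0.000836), so the direction of these 2 subunits depended on the scaling. The call of Nfyc also ended after quantile normalization (0.05, adjusted p 0.566) and when untreated macrophage replicate 1 or 3 or LPS-treated macrophage replicate 2 or 3 was left out. In untreated osteoclasts Nfya was at 5.70 ± 0.713 FPKM, against 26.3 ± 0.232 FPKM in untreated macrophages (SD, n = 3), which was -2.03 on the log2 scale (SE 0.07, adjusted p 6.61e-11). Nfyb was not called there, at 0.00 (SE 0.07, adjusted p 0.977), and was called lower in TPM (-0.39).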

How the data were processed

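RNA of 12 samples was made into libraries with the NEBNext Ultra RNA kit, per the labels. The authors deposited 1 FPKM value per gene and library; per the submitters' processing notes, fastp, STAR, featureCounts and DESeq2 and build mm10 were used, and neither versions nor an annotation are given in the sources used here. Within a tolerance of 0.02, the deposited FPKM values were whole multiples of a step for 25777 of 25854 genes above 0 (99.7%), which gave back read counts, including those of all 40 mitosis genes. Gene lengths matched GENCODE M21 for 96.8% of these genes and for 35 of the 40. The library denominators fitted median-of-ratios size factors to within 0.0001%, so values are relative to the typical gene; this is inferred and stated in no label.

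The test was limma's (version 3.58.1, R 4.3.3) moderated test with a variance trend, on log2(FPKM + 1) of genes that reached 1 FPKM in 3 or more libraries, in a single model of 4 group means over all 12 libraries. Tests were two-sided. Adjusted p-values are Benjamini-Hochberg over 11335 genes, and genes under 0.05 were called. Folds are ratios of mean FPKM. Values in every library are given for the gene with the highest mean in each role and for the 4 highest and 4 lowest log2 differences in each LPS and cell type comparison (21 genes). Other mitosis genes were named for the 3 highest and 3 lowest called differences, and of the regulators any could be named. The mitosis genes, lists and tests were chosen with earlier results of these data known.

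Alternatives changed the pseudocount (to 0.1), the filter (none, or a mean of 5 FPKM or more), the scaling (TPM or quantiles), the libraries fitted (only the groups compared, except for the interaction, or all but 1), or the model (replicate block, no variance trend, or voom on recovered reads). For the other genes named, these were added after seeing the data. On simulated data for the LPS effect in macrophages, 84.4% of 192 changed genes among 10678 tested were called, and 4.14% of calls were false. That simulation gave every gene the same dispersion, changed few genes and took the library scaling as known. In the real data 33.1% of all genes were called lower and 36.8% higher. The simulated rates therefore do not give the share of false calls in the real data. Precision rests on 3 libraries per group and on 8 reads or more per mitosis gene and library. Positions of genes come from GENCODE M21 (GRCm38) and promoters from RefSeq. Plots were drawn with matplotlib 3.10.9 in Python 3.11.15.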

Additional observations from a re-analysis of the deposited data

Results flagged for a closer look

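The LPS effect differed between osteoclasts and macrophages, by limma's test of the interaction, for 27 of the 40 mitosis genes, against 26.6% of all genes with an interaction called above 0 and 30.0% with one called below 0. All 27 values were above 0, the effect in osteoclasts being less negative than that in macrophages. The value was 2.20 for Ccnf, the largest of the 40. It was 1.08 for Cdc20, 1.04 for Kif2c, 1.00 for Kif20a, 0.99 for Ttk and 0.98 for both Ect2 and Cenpf. It was 0.92 for Nek2, 0.90 for Bub1b, 0.85 for Cenpa, 0.82 for Kif23 and 0.81 for Cdc25b. Values of 0.71 for Plk1, 0.71 for Aurkb, 0.69 for Incenp, 0.68 for Cdca3, 0.62 for Aurka and 0.61 for Kif11 followed. Lower values were 0.57 for Cdk1, 0.54 for Anln, 0.53 for Spc25, 0.51 for Ccna2, 0.51 for Prc1, 0.46 for Hmmr, 0.42 for Cdc25c, 0.30 for Cdca8 and 0.20 for Tpx2. Leaving out 1 library ended the calls of 3 of the 27: that of Hmmr ended when any of 9 of the 12 libraries was left out, that of Tpx2 for 6 and that of Cdc25c for 4. The log2(FPKM + 1) scale compresses low values, and mitosis genes other than Ccnf were low in osteoclasts. With a pseudocount of 0.1, 23 of the 40 interactions were called, without those of Anln, Aurkb, Hmmr and Tpx2. With voom on recovered reads 20 were called, without those of Plk1 (0.63, adjusted p 0.102), Cdc25b, Ccna2, Anln, Hmmr, Cdc25c, Cdca8 and Tpx2, and with that of Top2a. The part of the low level in the interaction was otherwise not tested.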

How the results depend on the processing

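No mitosis gene that was called turned its direction under any alternative that was run, and in untreated and LPS-treated osteoclasts against macrophages 39 genes were called lower whichever library was left out. With a mean of at least 5 FPKM only 20 of the 40 genes were tested, and the counts were 15 lower with LPS in macrophages, 19 lower in osteoclasts both without and with LPS, and 14 interactions above 0. With LPS in macrophages, 2 genes (Mki67 and Cenpe) were called higher when only the groups compared were fitted and 2 in voom, and leaving out 1 library gave 0 to 2, with 2 without LPS-treated osteoclast replicate 2. The count lower with LPS in macrophages was 29 to 33 without 1 library, 38 in TPM, 33 after quantile normalization and 33 in voom. The shares of all genes called lower there were 70.0% in TPM and 45.8% after quantile normalization. With LPS in osteoclasts, 1 gene was called lower with no filter and 6 in TPM, where 10.8% of all genes were called lower. Leaving out 1 library gave 1 to 3 lower and 0 to 2 higher. Interactions above 0 numbered 24 to 34 without 1 library, with 34 without LPS-treated osteoclast replicate 2, where the cause was not tested. Same-numbered libraries did not deviate together (18 correlations of -0.07 to 0.10), so numbers were not taken as pairs; with the replicate block, 34 genes were lower with LPS in macrophages, 4 lower with LPS in osteoclasts, 39 lower in osteoclasts without and with LPS, and 31 interactions were above 0. The block added the calls of Top2a, Ube2c and Nuf2 with LPS in macrophages, of Cenpa with LPS in osteoclasts (adjusted p 0.0156), and of the interactions of Top2a, Ube2c, Birc5 and Ndc80, and it ended none. Among the other genes named, values with LPS in macrophages turned in TPM for Nfyb (-0.056), Nfyc (-0.41) and Rbl2 (-0.56), and the call of Rbl1 ended there; these alternatives were chosen after seeing the data, and the cause was not tested. The lowest count of a mitosis gene was 8 reads, in an osteoclast library, and the power to call LPS effects at the depth of the osteoclast libraries was not tested.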
